A study of Mus musculus with 3 samples.

Results

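DNA methyltransferases, UHRF proteins and TET enzymes write, keep and remove the methyl mark on cytosine. The 9 genes described here, Dnmt1, Dnmt3a, Dnmt3b, Dnmt3l, Uhrf1, Uhrf2, Tet1, Tet2 and Tet3, were taken by symbol from a table of RNA-seq counts that lists 21782 genes, and all 9 were found. The table holds 3 libraries of polyA+ RNA from mouse embryonic fibroblasts (MEFs), which were cultured from E12.5 embryos in DMEM with 20% FBS. All 3 libraries are of wild type (WT) control MEFs growing asynchronously, 1 library for each of 3 clones, with no other genotype and no treatment named in the labels. The strain, and whether the clones came from different embryos, are not given in the sources used here. With 1 condition there is no contrast between groups, so the comparisons are between the genes and between the clones. Only RNA was measured, and neither the proteins nor DNA methylation itself.

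The libraries held between 22594316 and 25261357 counts, which differ by 1.12-fold. At these depths a count of 0 allows up to 3 counts, or 0.119 to 0.133 CPM (counts per 1000000 counts, scaled for library composition by the TMM method). The labelled cell type was checked against its markers. All 7 fibroblast genes examined, among them Col1a1, Col1a2 and Vim, were expressed, which here means that no clone had less than 1 CPM. None of the 5 pluripotent and germ cell genes examined was expressed. The highest were Nanog, with 9, 9 and 7 counts in clones 1, 2 and 3, and Sox2, with 3, 2 and 7. Esrrb had 5 counts at most, Pou5f1 had 1 at most and Zfp42 was at 0. The libraries also differed in markers of cell state and of other cell types. All 10 S phase genes and all 6 proliferation genes were lowest in clone 1 and highest in clone 2. The 3 genes of growth arrest, Cdkn1a, Cdkn2a and Cdkn2b, were highest in clone 1. The 6 macrophage and leukocyte genes summed to 1104 CPM in clone 2, against 249 in clone 1 and 203 in clone 3. Of 4 epithelial genes 1 was expressed, Krt18, with 69, 67 and 134 counts in clones 1, 2 and 3. Of 3 endothelial genes 1 was expressed, Kdr, with 163, 214 and 314 counts.

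Methylation of CpG sites is copied at each cell division and can also be laid down or removed afresh. DNMT1 methylates the newly made strand behind the replication fork, and UHRF1 brings it there by binding hemimethylated DNA, whereas DNMT3A and DNMT3B methylate unmodified sites and DNMT3L, which has no catalytic activity, stimulates them in germ cells. TET1, TET2 and TET3 oxidise 5-methylcytosine, which leads to its loss by dilution or base excision repair. Genes for DNA replication are commonly driven by E2F factors in proliferating cells.

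Promoter sequences are shown here for Dnmt1, Uhrf1 and Tet2. These genes were picked because Dnmt1 and Uhrf1 were lowest and Tet2 was highest in clone 1. Dnmt3a, Uhrf2, Tet1 and Tet3 were also lowest in clone 1, and their promoters are not shown. RefSeq (GRCm38.p6) gives 16 promoter windows for the 9 genes, each from 250 bases before to 50 bases after a transcription start. The letters TTTCGCGC or TTTGGCGC, which are E2F consensus letters, were searched on both strands. They were found in 2 of the 16 windows, 1 of Dnmt1 and 1 of Uhrf1, where the matches did not overlap each other. The windows of Dnmt3a, Uhrf2, Tet1 and Tet3 held none of the letters. Over all genes 0.813% of the 32851 windows held them (267 windows). The search was chosen with earlier results of these data known. Both sets of letters also contain CpG, which was frequent in the 2 windows, so the share over all windows is not a like background. The Uhrf1 sequence is the 250 bases before the start on the plus strand at chr17:56304063-56304312, a stretch inside the gene's annotated span that overlaps no annotated exon of Uhrf1, and the 2 Dnmt1 sequences are the sites alone, on the minus strand at chr9:20952824-20952853 and chr9:20952574-20952601, with the matching letters in capitals.
Uhrf1 promoter: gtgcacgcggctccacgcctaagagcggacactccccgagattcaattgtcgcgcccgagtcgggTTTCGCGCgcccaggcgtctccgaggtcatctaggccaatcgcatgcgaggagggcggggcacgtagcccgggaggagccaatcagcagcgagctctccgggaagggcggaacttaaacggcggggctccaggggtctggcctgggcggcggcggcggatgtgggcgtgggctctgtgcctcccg
Dnmt1 first site: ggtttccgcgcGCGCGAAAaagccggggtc
Dnmt1 second site: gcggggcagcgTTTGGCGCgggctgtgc
The first Dnmt1 site begins 219 bases before the transcription start of its window, with the match on the opposite strand, within a noncoding part of exons of Dnmt1 transcripts that start further upstream. The second begins at base 34 after that start, and the Uhrf1 site begins 185 bases before its start. For Tet2 the 250 bases before the start on the minus strand at chr3:133544391-133544640 are given with each CpG in capitals. That stretch too lies inside the gene's annotated span and overlaps no annotated exon of Tet2.
Tet2 promoter: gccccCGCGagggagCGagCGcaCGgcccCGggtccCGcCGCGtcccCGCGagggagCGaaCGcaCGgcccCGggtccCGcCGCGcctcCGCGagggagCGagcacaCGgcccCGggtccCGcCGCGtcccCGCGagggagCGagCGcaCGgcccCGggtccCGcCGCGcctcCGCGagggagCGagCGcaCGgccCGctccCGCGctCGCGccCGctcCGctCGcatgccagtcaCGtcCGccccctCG
None of the searched letters were found in the Tet2 window, but it held 57 CpG in 300 bases, more than 99.8% of all windows, whose median was 7. The windows of Dnmt1 and Uhrf1 that hold the letters had 33 CpG each, the first windows of Dnmt3a had 46 and 47, and those of Dnmt3l had between 3 and 6. Other windows had fewer than these for Dnmt1 (12 and 2), Uhrf1 (12) and Dnmt3a (18). A match of letters is a description of the sequence, and neither binding nor methylation was measured there. Any part of E2F factors in the differences between clones was not tested.

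Dnmt1, Uhrf1 and Uhrf2, the genes of the maintenance enzyme and the UHRF pair, had the highest levels of the 9 genes, in CPM and also per kb of exon. Dnmt1 (chr9:20907209-20959888, minus strand, GRCm38) had 2066, 3550 and 3342 counts in clones 1, 2 and 3, which is 83.2, 157 and 132 CPM. Clone 1 was the low library, and clone 2 was 1.19-fold above clone 3. The mean of 124 ± 37.8 CPM (SD, n = 3) was above that of 88.2% of the 11367 expressed genes. Uhrf1 (chr17:56303321-56323486, plus strand), its recruiting partner, had 1134, 2223 and 2294 counts, or 45.6, 98.6 and 90.8 CPM, with a mean of 78.4 ± 28.6 CPM. Again clone 1 stood below both other clones. Uhrf1 had 54.9 counts for every 100 of Dnmt1 in clone 1, 62.6 in clone 2 and 68.6 in clone 3. Uhrf2 (chr19:30030513-30093722, plus strand), a paralog that does not replace UHRF1 in maintenance, was more even, with 1078, 1226 and 1420 counts and a mean of 51.3 ± 6.94 CPM. In clone 1 the levels of Uhrf1 and Uhrf2 in CPM were close, at 45.6 and 43.4, but CPM are not scaled for gene length. In a search of 86-nt stretches, the length of the reads, 37.0% of those in the Uhrf1 transcript matched Gm15953 or Gm5648 within 2 mismatches. The Uhrf1 count is therefore less certain than that of Dnmt1, where none matched another gene.

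**Figure D1:**
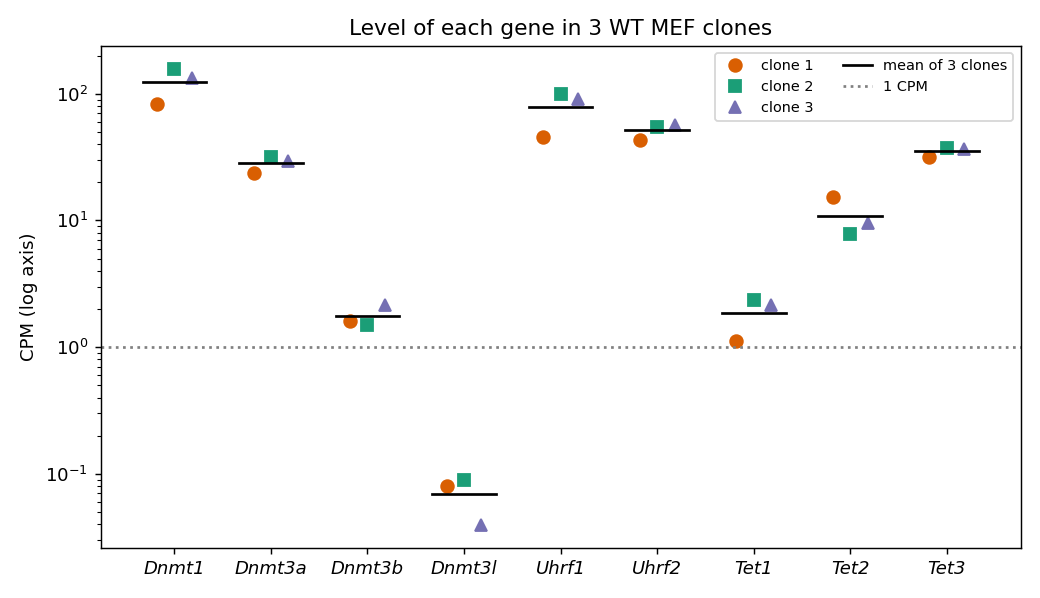
Level of each of the 9 genes in CPM on a log axis, with 1 point for each of the 3 WT MEF clones, a line at their mean and a dotted line at 1 CPM. Dnmt1 and Uhrf1 sit highest, with clone 1 below the other clones, Tet2 has clone 1 on top, and Dnmt3l is the one gene under 1 CPM.

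Of the de novo methyltransferase genes, Dnmt3a was well expressed, Dnmt3b was near the lower limit of expressed genes and Dnmt3l was close to 0. Dnmt3a (chr12:3806007-3914443, plus strand) had 592, 711 and 749 counts, a mean of 28.3 ± 4.02 CPM, above 52.7% of expressed genes. Its lowest value was again in clone 1, at 23.8 CPM, against 31.5 and 29.7 CPM. Dnmt3b (chr2:153649450-153687730, plus strand) had 40, 34 and 54 counts, a mean of 1.75 ± 0.338 CPM, above only 2.39% of expressed genes. Its lowest library was clone 2, and the 3 values were not called as differing (the test is given with the comparison of clones). Of its 86-nt stretches, 17.0% matched the paralog Dnmt3c, which is not analysed here. Dnmt3l (chr10:78041947-78063622, plus strand) had 2, 2 and 1 counts, all under the 3 counts that a count of 0 allows. No background was measured, so at this depth its level is given only as close to 0. Genes on the opposite strand cover 2.24% of the exon bases of Dnmt3l, 0.799% of those of Dnmt3a and 0.255% of those of Tet2, and reads of the 2 strands cannot be told apart there if strand was not used in counting. Of the counts of Dnmt3a and Dnmt3b together, Dnmt3a took 93.7% in clone 1 (95% Wilson interval 91.5 to 95.3), 95.4% in clone 2 (93.7 to 96.7) and 93.3% in clone 3 (91.3 to 94.8). These intervals cover counting error only and overlap between the clones. The share was 94.1% ± 1.15 (SD, n = 3) of counts and 83.1% ± 2.96 per kb of merged exons, since Dnmt3a is annotated with 18 transcripts and 16642 bp of exons, against 5106 bp for Dnmt3b.

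Among the genes for the oxidising enzymes, Tet3 was highest in CPM and also per kb of exon, Tet2 intermediate and Tet1 close to the threshold for expression. Tet3 (chr6:83362373-83459084, minus strand) had 784, 842 and 933 counts, a mean of 35.3 ± 3.23 CPM, the smallest spread relative to the mean of the 9 genes. Tet2 (chr3:133463679-133545139, minus strand) had 379, 177 and 242 counts, or 15.3, 7.85 and 9.58 CPM, with a mean of 10.9 ± 3.87 CPM. Clone 1, the lowest library for Dnmt1 and Uhrf1, was the highest for Tet2, 1.94-fold above clone 2 and 1.59-fold above clone 3. Tet1 (chr10:62804570-62908996, minus strand), best known from pluripotent cells, had 28, 53 and 54 counts, a mean of 1.87 ± 0.654 CPM. In clone 1 it was at 1.13 CPM, just above the 1 CPM threshold.

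The makeup of the TET counts shifted between the clones. Tet2 took 31.8% of the counts of the 3 genes in clone 1 (95% Wilson interval 29.2 to 34.5), 16.5% in clone 2 (14.4 to 18.9) and 19.7% in clone 3 (17.6 to 22.0). Clone 1 lay outside the intervals of the other clones, while those of clones 2 and 3 overlapped. Tet3 took 65.8%, 78.5% and 75.9% in clones 1, 2 and 3, so it was the larger part in each, and Tet1 took 2.35%, 4.94% and 4.39%. A like shift was seen in the UHRF pair, where Uhrf1 took 51.3% in clone 1 (49.2 to 53.3), 64.5% in clone 2 (62.8 to 66.0) and 61.8% in clone 3 (60.2 to 63.3). Dnmt1 took 76.6% of the counts of Dnmt1, Dnmt3a and Dnmt3b in clone 1 (74.9 to 78.1), 82.7% in clone 2 (81.5 to 83.8) and 80.6% in clone 3 (79.4 to 81.8). In both, clone 1 was the low library and its interval met neither of the others.

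**Figure D2:**
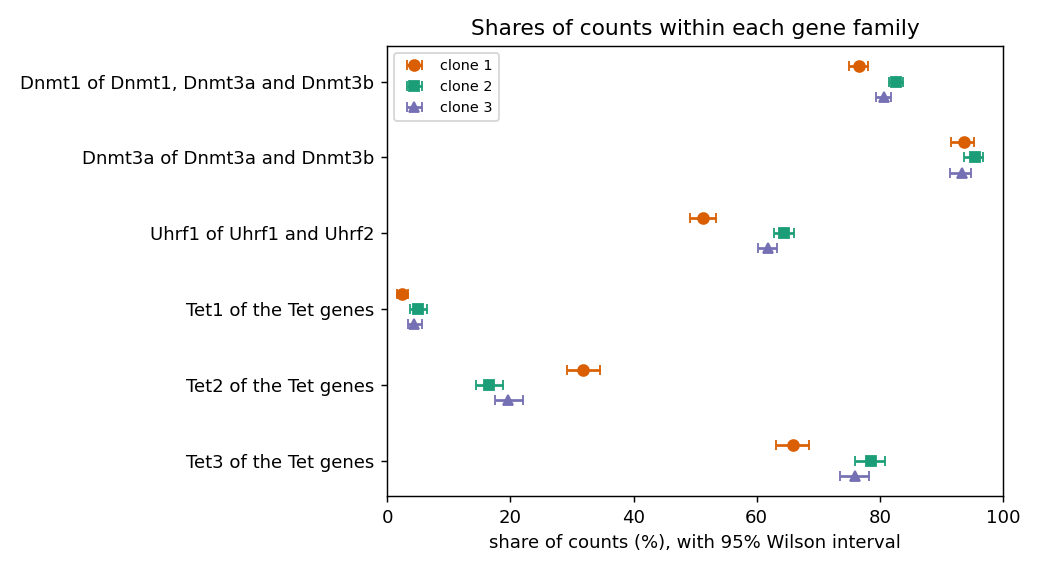
Share of counts in percent taken by a gene within its family, 1 point per clone with its 95% Wilson interval, which covers counting error only. The clone 1 point for Tet2 lies at 31.8%, to the right of 16.5% and 19.7% in clones 2 and 3, and the clone 1 points for Dnmt1, Uhrf1 and Tet3 lie to the left of the others.

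Levels of different genes can be compared only per length. Per kb of all annotated exons merged, Uhrf1 (18.4 ± 6.71 CPM per kb) and Dnmt1 (16.9 ± 5.12) came first, and their ranges over the clones overlapped. Uhrf2 followed at 5.98 ± 0.807 CPM per kb, below Dnmt1 in every clone and outside its range. Tet3 (2.11 ± 0.194) and Dnmt3a (1.70 ± 0.241) came next, again with overlapping ranges. Below them Tet2 (0.646 ± 0.230), Dnmt3b (0.343 ± 0.0662), Tet1 (0.121 ± 0.0423) and Dnmt3l, at a mean of 0.0233 CPM per kb, each lay apart from the gene before. Of the 8 pairs of neighbours, 6 had ranges that did not overlap. The order and the separation of neighbours depended on the length that was used. With the transcript that has the longest coding sequence, Dnmt1 (23.2 CPM per kb) came before Uhrf1 (21.8), and the ranges of Uhrf1 and Uhrf2 (14.5) overlapped, while those of Tet3 and Dnmt3a did not. Per kb of coding length alone, Dnmt3a (10.4) came before Tet3 (6.52), and the 2 ranges did not overlap. By that length Dnmt1 (25.6 CPM per kb) was no longer apart from Uhrf2 (21.3), as their ranges overlapped and Dnmt1 was the higher in 2 of the 3 clones.

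**Figure D3:**
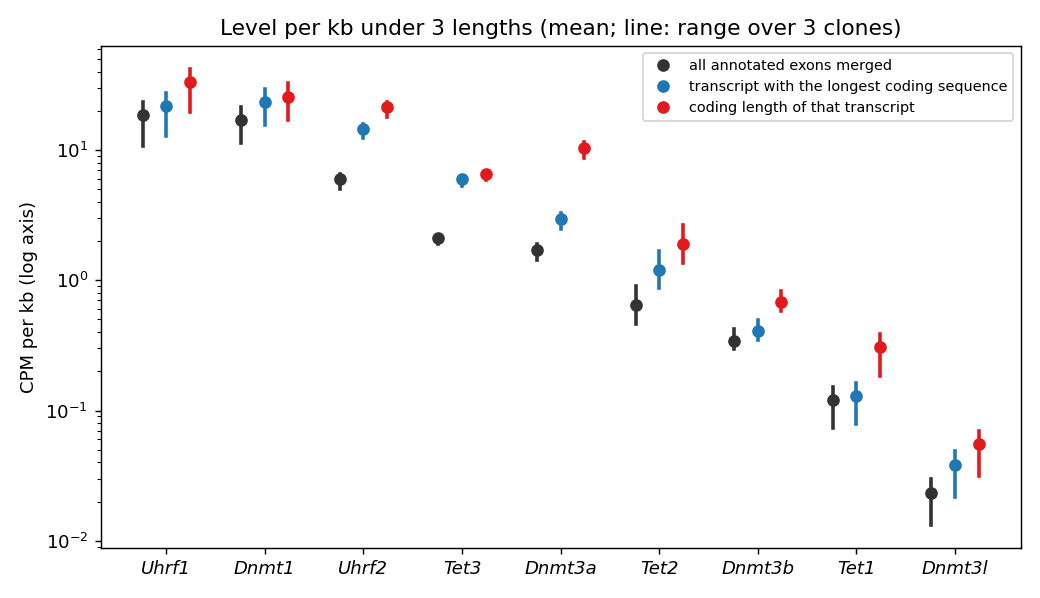
CPM per kb on a log axis under 3 lengths, all annotated exons merged, the transcript with the longest coding sequence, and its coding length, with a point for the mean and a line for the range over the 3 clones. The order from Uhrf1 and Dnmt1 down to Tet1 and Dnmt3l is the same under each except that Uhrf1 and Dnmt1, and Tet3 and Dnmt3a, change places.

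The counts of most of these genes differed between the 3 libraries by more than counting error. Each gene with at least 10 counts in every clone was tested with a Pearson chi-square test of its 3 counts against the scaled library sizes, with Benjamini-Hochberg adjustment over all 12218 genes tested. The test takes reads as independent, so its p-values cover counting error only and are small for most genes with many counts. With 1 library per clone it compares libraries and not conditions, and a clone cannot be told apart from its culture or its library. Of the 9 genes 8 were expressed (52.2% of all listed genes were) and the same 8 could be tested, and 7 of them were called as differing, all but Dnmt3b (adjusted p = 0.262). Over all genes tested 62.5% were called, so a call is common and 7 of 8 is not read as particular to these genes. Dnmt1, Dnmt3a, Uhrf1, Uhrf2, Tet1 and Tet3 were called and lowest in clone 1, where 27.1% of all genes tested were. Tet2 alone was called and highest in clone 1, as were 23.8% of all. A difference of at least 2-fold was reached by Uhrf1 and Tet1, against 7.93% of genes tested. When clone 1 was left out, 2 of the 8 remained called, Dnmt1 and Uhrf1, and 31.7% of all genes, so the calls of Dnmt3a, Uhrf2, Tet1, Tet2 and Tet3 rested on clone 1. When clone 2 was left out, the same 7 were called, and 45.3% of all genes.

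The size of the differences separated the genes more than the calls did. Uhrf1 was 2.16-fold higher in clone 2 and 1.99-fold higher in clone 3 than in clone 1 (adjusted p = 6.1e-110, chi-square test), a range of 1.09 in log2(CPM + 1) that exceeded that of 96.5% of genes tested. Dnmt1 was 1.89-fold higher in clone 2 and 1.59-fold higher in clone 3 than in clone 1 (adjusted p = 1.9e-119), a range of 0.91 that exceeded 94.3%. Both genes act at the replication fork, and both kept a smaller difference between clones 2 and 3, of 1.19-fold for Dnmt1 and 1.09-fold for Uhrf1. Tet2 had a range of 0.88 in the opposite sense (adjusted p = 3.0e-14), above 93.8% of genes tested. Tet1 had a range of 0.66 (adjusted p = 0.00739), and its values rest on few counts. Dnmt3a (0.39, adjusted p = 3.4e-06), Uhrf2 (0.37, adjusted p = 4.0e-10) and Tet3 (0.24, adjusted p = 0.00162) differed by at most 1.32-fold between any clones, and Tet3 varied less than most genes, exceeding 41.3% of them. The median range over the 8 genes was 0.52, beside 0.28 over all genes tested.

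**Figure D4:**
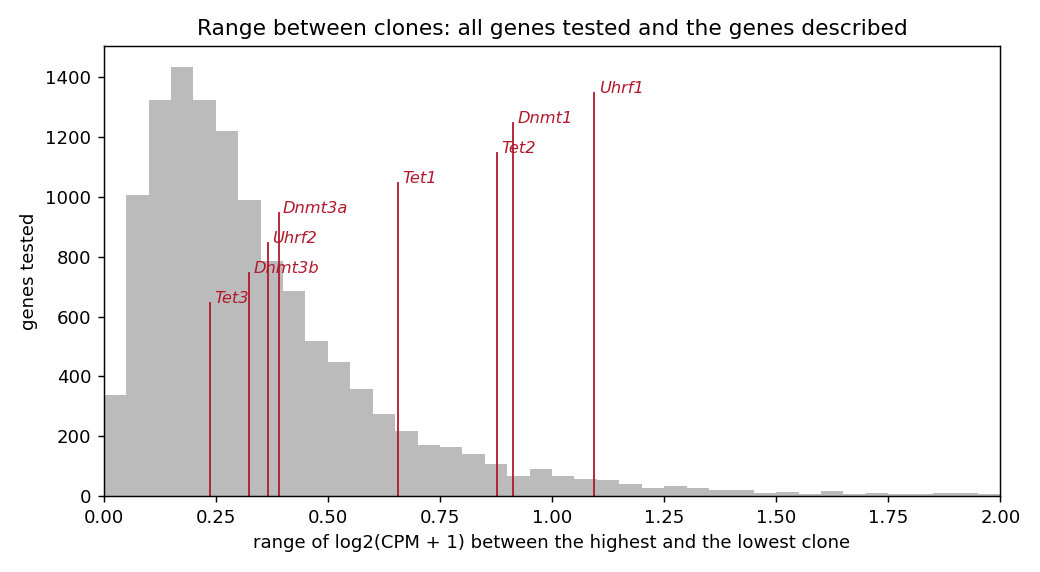
Number of genes tested by the range of log2(CPM + 1) between the highest and the lowest clone, in grey, with a red line at each of the 8 genes tested (the height of the lines carries no value). Uhrf1, Dnmt1 and Tet2 lie in the right tail at 1.09, 0.91 and 0.88, and Tet3 lies at 0.24 near the bulk, whose median is 0.28. The axis ends at 2, and 79 genes lie beyond it.

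The deviations of Dnmt1 and Uhrf1 were of the same order as those of the genes for DNA replication. The deviation of a gene in a clone is its log2(CPM + 1) less the mean over the clones. Dnmt1 stood at -0.53, 0.39 and 0.14 in clones 1, 2 and 3. Uhrf1 stood at -0.69, 0.40 and 0.29. The medians of the S phase list (Mcm2 to Mcm7, Rrm1, Rrm2, Tyms and Gins2) were -0.61, 0.45 and 0.16, and those of the proliferation list were -0.60, 0.43 and 0.18. The arrest list was at 0.60, -0.47 and -0.14, the sense in which Tet2 deviated (0.50, -0.38 and -0.12). The macrophage and leukocyte list was at -0.70, 1.50 and -0.80, highest in clone 2 and lowest in clone 3. Of the 8 genes tested, 5 were also highest in clone 2, and none was lowest in clone 3. The shares of all genes tested with these patterns are not given here, so these counts are not read as particular to the genes described. In bulk RNA fewer cells of a type and less RNA per cell cannot be told apart. The part of cell cycle state and of macrophages in these differences was not tested.

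**Figure D5:**
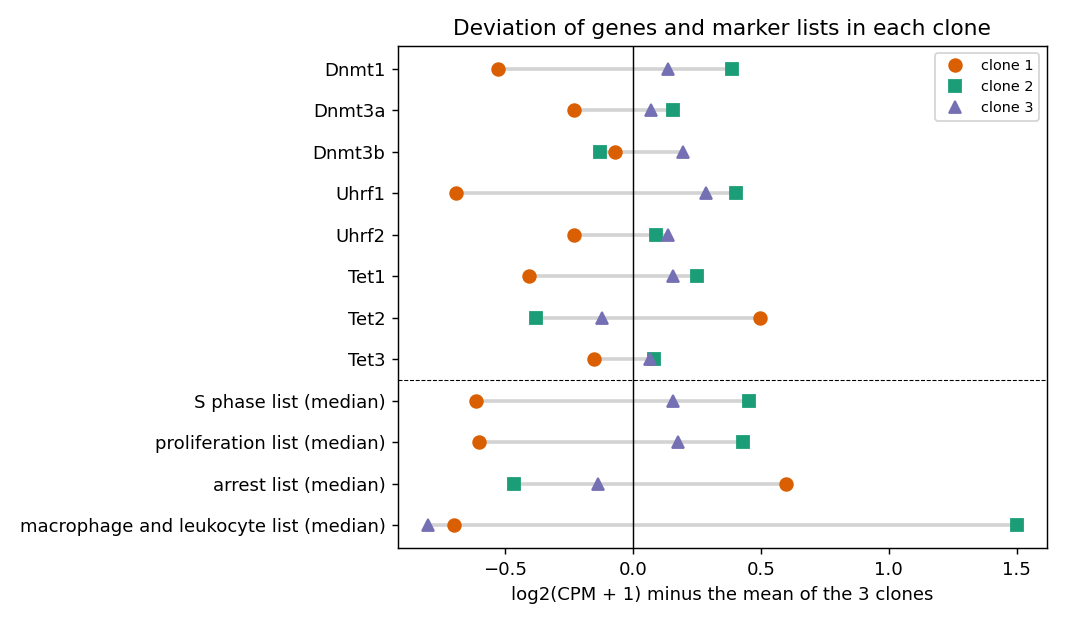
Deviation in log2(CPM + 1), per clone, of the 8 genes tested from their own mean, above the dashed line, and the median deviation of 4 marker lists, below it. Clone 1 is the leftmost point for Dnmt1, Uhrf1 and the S phase and proliferation lists, at -0.53, -0.69, -0.61 and -0.60, and the rightmost for Tet2 and the arrest list, at 0.50 and 0.60.

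Among 8389 tested genes whose mean was 10 CPM or higher, those most like Dnmt1 in their 3 deviations, by Euclidean distance, were Ncaph, a condensin subunit (0.0099), Rpa1, a subunit of the single-stranded DNA binding protein RPA (0.0125), and Pbk, a mitotic kinase (0.0159). The median distance of all candidates from Dnmt1 was 0.671. Those most like Uhrf1 were the mitotic kinesins Kif20b (0.0397) and Kif11 (0.0412), and C330027C09Rik (0.0420), beside a median of 0.850. Dnmt1 and Uhrf1 were at a distance of 0.223 from each other, rank 237 from Dnmt1 and rank 111 from Uhrf1. A likeness over 3 clones is a description, since many genes share so short a pattern.

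The genes that work with the writers were nearly all expressed. Of 12 such partners 11 were expressed, and Dppa3, which guards methylation in the early embryo, had 0, 4 and 0 counts. The highest were Trim28 (367 ± 11.4 CPM), the corepressor that brings methylation to imprinted regions, and Ehmt2 (162 ± 12.5), a histone H3K9 methyltransferase. Of the 11 tested, 9 were called (81.8%, beside 62.5% of all genes tested). Of these, 6 were lowest in clone 1 (27.1% of all) and 2, Zfp57 and Ehmt2, were highest there (23.8% of all). The largest range was that of Cdca7, which with HELLS forms a remodeller needed for maintenance methylation, with 189, 407 and 381 counts, 2.37-fold from the lowest to the highest clone. Clone 1 was again the low library, well apart from the other two.

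The genes of methyl-CpG readers and their relatives were all expressed, 8 of 8, and 3 of 8 were called (37.5%, beside 62.5% of all genes tested). Of those called, 2 were lowest and 1 highest in clone 1 (27.1% and 23.8% of all). The highest were Mbd3 (90.0 ± 4.52 CPM), a NuRD subunit of the same family whose mammalian form does not itself bind methylated CpG selectively, and Zbtb4 (43.5 ± 2.29), a zinc finger protein that binds methylated CpG. The largest range among those called was that of Zbtb33, which encodes Kaiso, with 259, 317 and 380 counts.

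On the side of removal, 13 of 16 genes for base excision and repair were expressed, and 10 of the 14 tested were called (71.4%, near the 62.5% of all genes), 5 lowest and 4 highest in clone 1 (27.1% and 23.8% of all). The highest were Gadd45g (119 ± 16.8 CPM), a stress response gene, and Parp1 (64.7 ± 15.4). Gadd45a, which has been linked to demethylation and to growth arrest, had the largest range, with 734, 278 and 346 counts, 2.40-fold from clone 2 to clone 1. Like Tet2 it was highest in clone 1 and lowest in clone 2. Neil2, with 11, 5 and 6 counts, was not tested. Tdg, the glycosylase that removes the products of TET oxidation, was listed with only 10, 21 and 17 counts, and it is named here after its values were seen. Of the 86-nt stretches of its transcript 85.2% matched another annotated gene or pseudogene within 2 mismatches, so this count does not give its level.

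Of 7 genes for TET partners and the supply of their cofactor, 6 were expressed and 5 of 7 were called, 2 lowest and 1 highest in clone 1, where 62.5% of all genes tested were called, 27.1% with the lowest and 23.8% with the highest value in clone 1. Ogt, whose product binds TET proteins, was the highest at 152 ± 28.3 CPM, with 4579, 2960 and 3552 counts, and Idh2, which makes 2-oxoglutarate, came next at 99.7 ± 18.3 CPM. The largest range was that of Cxxc4, with 18, 10 and 34 counts, which is few. Of 6 genes of the methyl donor pathway 5 were expressed and all 5 were called, 2 lowest and 3 highest in clone 1, to be read beside the same shares of all genes. Mat2a, the S-adenosylmethionine synthetase of tissues other than liver, was highest at 224 ± 14.2 CPM, with 5877, 4709 and 5753 counts. Mat1a, the liver form, was at 0 in every clone, which allows up to 3 counts.

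The RNA of 12 germline genes that are known to be silenced by promoter methylation in somatic cells was near 0 in all clones. None of the 12 was expressed at 1 CPM and none reached 10 counts in every clone, so none was tested. Of these, 6 were at 0 in every clone and 9 had 3 counts or fewer in every clone. The highest was Brdt, a testis bromodomain gene, with 9, 7 and 13 counts (0.396 CPM), followed by Tdrd1, of the piRNA pathway, with 7, 2 and 5 counts (0.189 CPM). The 12 genes summed to 0.765, 0.532 and 0.950 CPM in clones 1, 2 and 3. These sums rest on too few counts to compare the clones.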

How the data were processed

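Counts per gene for 3 libraries of polyA+ RNA were used as deposited. The authors mapped single-end reads of 86 nt (Bowtie 0.12.7 under TopHat 2.0.0; Samtools 0.1.16), with 2 mismatches and 5 positions allowed per read, and made raw counts with HTSeq, with no normalization. The methods name mm10, the processing notes mm9; the HTSeq version, annotation and strand setting are not given in the sources used here.

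CPM were computed with TMM-scaled library sizes (edgeR 4.0.16, R 4.3.3); no quasi-likelihood test could be made with 1 group. Differences between clones were tested with a Pearson chi-square test (2 degrees of freedom, SciPy 1.17.1) over genes at 10 counts or higher in each clone, at a Benjamini-Hochberg adjusted p under 0.05. The script was tested on simulated data. Lengths and positions came from GENCODE M21 (GRCm38), promoters from RefSeq. Stretches of 86 nt were matched to all transcripts with BLAST 2.17.0. Gene symbols were matched as listed.

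The members, lists and promoter search were chosen with earlier results of these data known. Named genes are the members; of each list, the 2 with the highest mean, the one with the largest range among those called, and those not tested (germline genes as counts); and the 3 genes nearest to Dnmt1 and to Uhrf1. Some listed genes under this rule are not reported here. Alternatives were DESeq2 1.42.0 size factors, total counts, other minimums, pseudocounts and lengths, and leaving out each clone; the length of unshared stretches was added after seeing the data.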

Additional observations from a re-analysis of the deposited data

How the results depend on the processing

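Of the 59 alternatives for counts of genes, counts of separated neighbours and shares, 48 left the value in place, which means a count within 1.5 times or a share within 1 SD over the clones. No deviation changed sign, but the order per kb changed with the length: Dnmt1 passed Uhrf1 with the transcript whose coding sequence is longest, and Dnmt3a passed Tet3 by coding length. Leaving out 1 clone gave between 3893 and 6531 genes and between 2 and 7 of the 9 genes called as differing, the lowest without clone 1. Requiring at least 2-fold left 969 genes and 2 members. Shares moved when counts were divided by length. Per kb of merged exons Dnmt1 took 88.8%, Dnmt3a 83.1% and Uhrf1 74.3%. By that transcript's length Dnmt1 took 87.0%, Dnmt3a 87.7%, Tet1 1.78% and Tet3 81.5%. Uhrf1 stayed in place by that length, at 58.8% beside 59.2% of counts. Of the alternatives for levels and deviations of single genes and of 4 marker lists, 192 stayed within 1 SD over the clones and 24 moved, 23 of them levels per kb under other lengths and 1 the deviation of Dnmt3l. With all counts kept and the length reduced to the unshared stretches of that transcript, a choice made after seeing the data, Uhrf1 came to 35.5 and Dnmt1 to 23.5 CPM per kb, beside 21.8 and 23.2 for the whole transcript. No paired analysis was possible because the 3 samples form 1 group. Depth limits Dnmt3b, Dnmt3l and Tet1, which had 54 counts or fewer in every clone.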
